A study of Homo sapiens with 19 samples.

Results

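Wide H2AZ domains are the peaks of 1000 bp or more in the list of H2AZ peaks from U2OS cells treated with mock siRNA. There were 2242 of them among 58082 H2AZ peaks, or 3.86%, and they held 16.3% of all bases in that list. The members were chosen by their width in the mock list, so their mock widths are a description. U2OS is a human osteosarcoma cell line. Chromatin immunoprecipitation (ChIP) for H2AZ, RNA polymerase II (Pol II), MED26 and H3.3 was performed in cells that received EP400 siRNA and in cells that received mock siRNA against GFP, both harvested 72 hr after transfection and grown in DMEM with Tet-approved serum, with 1 library per antibody and condition. H3K18ac and H3K4me1 were profiled after mock siRNA alone, and the 3 EP400 immunoprecipitations, for which the labels name no siRNA, came as 1 list. RNA was sequenced in 1 library per condition. The series title asks whether EP400 places H3.3 in promoters and enhancers at gene activation. With 1 library per condition, no difference described here has a replicate check, a test or a p-value, and the depth of the libraries is unknown because the lists carry positions only.

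H2A.Z is a variant of histone H2A that replaces the canonical histone in nucleosomes at promoters, enhancers and other open sites. At active promoters it typically marks the nucleosomes that flank the gap in front of the transcription start. EP400 and SRCAP are related ATPases whose complexes place H2A.Z. Pol II and the Mediator subunit MED26 mark transcribed starts, H3K18ac is an acetylation of active promoters and enhancers, H3K4me1 is a mark of enhancers, and H3.3 is a replacement variant of histone H3.

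The targeted transcript and the cell identity were checked first. EP400 stood at 2.28 FPKM (a fragment count scaled for the length of the transcript and the size of the library) after EP400 siRNA, against 10.04 FPKM after mock siRNA. The deposited confidence limits of EP400 overlapped, at 0.162 to 4.41 FPKM after EP400 siRNA and 0.165 to 19.9 FPKM after mock siRNA. Of the genes of H2A.Z itself, H2AZ1 had 529 FPKM after EP400 siRNA against 798 FPKM after mock siRNA. H2AZ2 had 94.0 against 174 FPKM. Their log2 ratios were -0.59 and -0.88 as deposited, and 0.18 and -0.11 after both libraries were scaled to the same sum. The median ratio as deposited was -0.93 in the highest of 5 classes of measured genes by mean FPKM. EP400, H2AZ1 and H2AZ2 had narrower H2AZ peaks at their ends and no wide domain. Of 10 mesenchymal and osteoblastic markers, 8 reached 1 FPKM after mock siRNA, with a summed level of 1532 FPKM after EP400 siRNA and 1268 FPKM after mock siRNA, while COL1A2 and SP7 were near 0. The 6 epithelial markers summed to 443 FPKM after EP400 siRNA and 959 FPKM after mock siRNA, carried by KRT8, KRT18 and CLDN4. The 3 blood markers, the 2 endothelial markers and ALB were each at or near 0 in both libraries. The 2 neural markers summed to 15.1 FPKM after EP400 siRNA and 3.76 FPKM after mock siRNA, nearly all of it SYP. What part these markers have in the RNA results was not tested. The H2AZ list held 26526 peaks after EP400 siRNA and 58082 after mock siRNA, so fewer and narrower peaks after EP400 siRNA are a property of the whole list, and less H2AZ cannot be told apart from a shallower library.

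The domains were short stretches of a few nucleosomes. The median width was 1200 bp, with quartiles of 1000 and 1300 bp, and the widest spanned 3700 bp. The narrower peaks had a median width of 200 bp. Widths of 1000 to 1400 bp held 1858 domains, 1500 to 1900 bp held 327, 2000 to 2900 bp held 54, and 3 domains were wider still. At the threshold itself, 598 peaks measured 1000 bp and 823 peaks measured 900 bp. Of these, 86.8% of the 1000-bp peaks and 85.3% of the 900-bp peaks had an H2AZ peak after EP400 siRNA, and 50.2% and 48.6% of them, in the same order of width, lay at gene ends. On these measures the peaks just inside and just outside the threshold were close.

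Where a wide domain sat at an annotated start, it lay across a promoter rich in CpG. The promoters of 5 genes are printed to show the DNA under such domains: FBXL17, an F-box protein of ubiquitin ligases whose 2400-bp domain is among the 15 widest; THSD7A, a membrane protein with thrombospondin repeats whose 1900-bp domain kept its width after EP400 siRNA; ITGA2, a collagen-binding integrin subunit with the highest RNA ratio; and IFIH1 and RIGI, which encode cytosolic sensors of viral RNA. Each is the 250 bases before the RefSeq start, read 5′ to 3′ on the gene's strand in build GRCh38.p14, with the Sp1-type box GGGCGG, or its reverse complement CCGCCC, in capitals. The sequences come from chr5:108382099-108382348 (minus strand), chr7:11832199-11832448 (minus strand), chr5:52989102-52989351 (plus strand), chr2:162318685-162318934 (minus strand) and chr9:32526197-32526446 (minus strand). The peak lists use hg19, so these bases were not placed on the domains by coordinate.
FBXL17: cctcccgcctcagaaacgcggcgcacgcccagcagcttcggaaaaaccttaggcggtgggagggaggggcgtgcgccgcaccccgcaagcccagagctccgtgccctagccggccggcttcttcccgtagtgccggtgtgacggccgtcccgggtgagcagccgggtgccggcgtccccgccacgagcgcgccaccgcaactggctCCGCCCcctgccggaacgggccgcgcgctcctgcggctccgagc
THSD7A: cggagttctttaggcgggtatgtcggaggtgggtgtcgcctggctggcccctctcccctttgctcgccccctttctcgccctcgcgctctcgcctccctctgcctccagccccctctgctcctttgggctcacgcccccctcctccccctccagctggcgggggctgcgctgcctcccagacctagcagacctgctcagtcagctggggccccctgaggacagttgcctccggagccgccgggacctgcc
ITGA2: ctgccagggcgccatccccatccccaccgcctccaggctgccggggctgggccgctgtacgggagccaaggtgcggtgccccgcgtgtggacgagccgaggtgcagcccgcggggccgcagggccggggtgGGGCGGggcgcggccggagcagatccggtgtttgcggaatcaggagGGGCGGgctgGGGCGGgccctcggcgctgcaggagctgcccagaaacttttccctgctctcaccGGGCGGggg
IFIH1: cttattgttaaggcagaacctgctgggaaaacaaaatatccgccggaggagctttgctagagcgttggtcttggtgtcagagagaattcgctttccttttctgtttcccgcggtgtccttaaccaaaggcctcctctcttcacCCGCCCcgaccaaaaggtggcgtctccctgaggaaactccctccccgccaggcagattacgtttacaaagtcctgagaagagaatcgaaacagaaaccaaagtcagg
RIGI: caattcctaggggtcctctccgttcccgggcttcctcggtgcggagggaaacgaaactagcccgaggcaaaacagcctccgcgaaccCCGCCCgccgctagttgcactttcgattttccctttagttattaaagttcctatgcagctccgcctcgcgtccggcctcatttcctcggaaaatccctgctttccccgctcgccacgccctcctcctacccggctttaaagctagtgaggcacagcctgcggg

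The boxes numbered 1 in FBXL17, 0 in THSD7A, 4 in ITGA2, 1 in IFIH1 and 1 in RIGI, and the 250 bases held 35, 15, 26, 12 and 22 CpG sites in the order printed. Across 572 genes with a wide domain at the start, the 300-base promoter (250 bases before and 50 after the start) had a median G+C content of 65.3% and a median CpG ratio (observed over expected) of 0.83. Genes with only narrower H2AZ peaks at the start had 66.0% and 0.85 (3947 genes), genes with no H2AZ there had 56.7% and 0.36 (2432 genes), and all 22114 promoters had 57.7% and 0.53. Wide and narrower H2AZ starts thus differed little in base composition, and both differed from starts without H2AZ. GGGCGG on either strand occurred in 69.4% of promoters with a wide domain, 72.8% of those with narrower peaks and 43.0% of all promoters. The box CCAAT on either strand was in 27.3% of promoters with a wide domain, against 37.7% of those with narrower peaks and 36.2% of all. TATAAA on either strand was in 3.50% of promoters with a wide domain, against 5.14% of those with narrower peaks and 12.7% of all promoters. A match is a run of letters and not a site.

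Most wide domains lay at gene ends, meaning within 2 kb of the first or last base of a locus in the RNA table. Of the 2242 domains, 1267 or 56.5% (Wilson 95% interval 54.5 to 58.6) overlapped a gene end, against 28.3% of narrower peaks and 29.3% of all H2AZ peaks. Intervals here and below cover counting error alone, and peaks of 1 list are no replicates. Enhancers, meaning stretches shared by H3K4me1 and H3K18ac away from gene ends, took 106 domains or 4.73%, against 4.89% of narrower peaks and of all H2AZ peaks alike. The other 869 domains lay inside a locus (359) or between loci (510). The RNA table has no strand, so start and end were separated with the RefSeq strand for single-gene loci over 8 kb. Of 586 such loci with a wide domain at either end, 572 or 97.6% had it at the start and 16 at the other end. The centre of the domain lay a median of -15.5 bp from the start, with quartiles of -240 bp and 180.5 bp, and the start fell inside the domain at 465 of the 572 genes. In a typical domain the upstream edge stood at -620.5 bp and the downstream edge at 579 bp from the start (medians).

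At gene starts, wide domains ran across the start. Their H2AZ coverage in mock cells follows in part from the choice by width and is a description. In mock cells, 82.0% of the 572 starts with a wide domain had H2AZ 300 bp upstream, 82.9% at the start and 84.8% 300 bp downstream. At the 3947 starts with only narrower peaks these shares were 40.8%, 17.3% and 53.2%, so H2AZ flanked the start and was less frequent on it. Pol II peaks covered 88.6% of starts with a wide domain and 84.6% of starts with narrower peaks. H3K18ac covered 38.5% of starts with a wide domain and 17.7% of those with narrower peaks. H3.3 avoided the start in both groups: it covered 1.57% of starts with a wide domain and 1.14% of those with narrower peaks, and 600 bp downstream it covered 12.2% and 10.6%, in the same order of groups.

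After EP400 siRNA H2AZ covered fewer starts in both groups, and the high mock share at wide domains is set by the choice of members. H2AZ covered 32.9% of these 572 starts after EP400 siRNA against 82.9% after mock siRNA. On the flanks it covered 49.1% against 82.0% at 300 bp upstream, and 56.5% against 84.8% at 300 bp downstream, with EP400 siRNA given before mock siRNA. At the 3947 starts with only narrower peaks H2AZ covered 6.84% of starts after EP400 siRNA against 17.3% after mock siRNA. Gene by gene, 209 of the 572 starts (36.5%) had H2AZ on both sides and not on the start after EP400 siRNA, against 67 (11.7%) after mock siRNA. Another 188 starts were still covered after EP400 siRNA, 70 had H2AZ upstream only, 65 downstream only and 40 had none. H2AZ on both sides and not on the start was also the most frequent pattern of narrower-peak starts in mock cells, and it was found at 20.2% of the 3947 after EP400 siRNA and 43.6% after mock siRNA. Pol II covered 71.3% of starts with a wide domain after EP400 siRNA and 88.6% after mock siRNA.

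**Figure D1:**
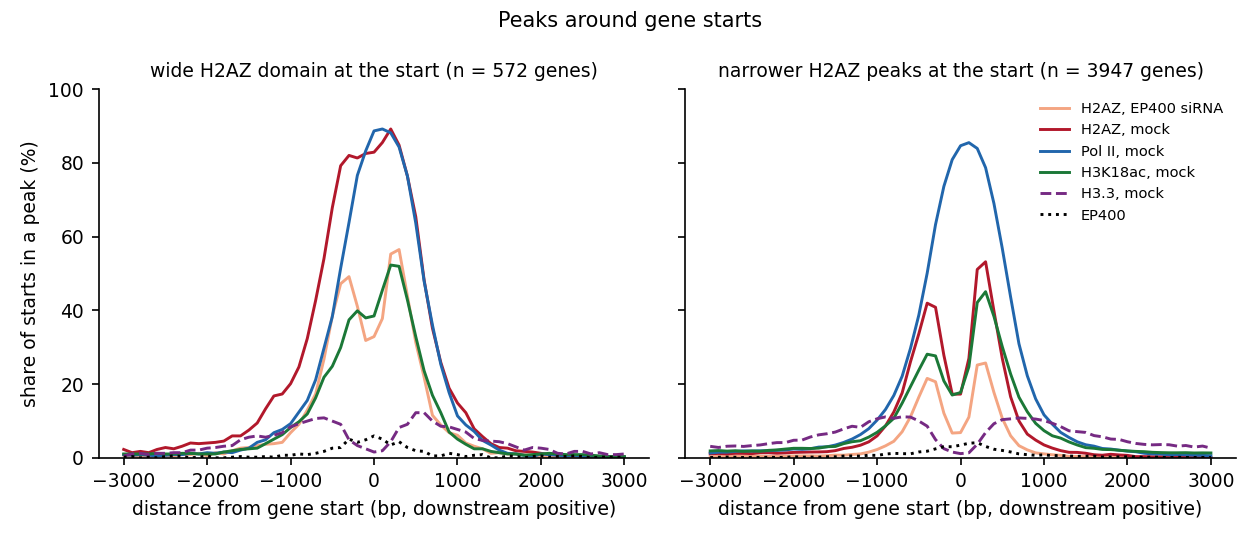
The share of gene starts inside a peak (y axis, %) is plotted against the distance from the start (x axis, bp, downstream positive) for 572 genes with a wide H2AZ domain at the start (left) and 3947 genes with narrower H2AZ peaks only (right). At the start the EP400 siRNA H2AZ line is at 32.9% and the mock line at 82.9% for wide domains, and they are at 6.84% and 17.3% for narrower peaks.

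Wide domains overlapped the other lists more often than narrower peaks did. Pol II overlapped 1613 domains or 71.9% (70.0 to 73.8), against 28.8% of narrower peaks and 30.4% of all H2AZ peaks. H3K18ac overlapped 68.0%, against 31.6% of narrower peaks and 33% of all. MED26 overlapped 63.7%, against 20.2% of narrower peaks and 21.9% of all. H3.3 overlapped 29.2%, against 9.68% of narrower peaks and 10.4% of all. EP400 overlapped 476 domains or 21.2% (19.6 to 22.97), against 4.54% of narrower peaks and 5.19% of all. H3K4me1 overlapped 11.5%, against 8.19% of narrower peaks and 8.32% of all. No test of these differences was possible.

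Overlap grows with width by construction, so the centre of each H2AZ peak and the bases it covers were read as well. The centre lay in a Pol II peak for 60.8% of wide domains and 25.4% of narrower peaks, in an H3K18ac peak for 43.8% and 27.2%, and in a MED26 peak for 41.3% and 15.1%, wide domains being given before narrower peaks. For EP400 the centre shares were 3.03% of wide domains and 1.53% of narrower peaks. For H3.3 and H3K4me1 the order turned round: the centre lay in an H3.3 peak for 3.84% of wide domains and 5.98% of narrower peaks, and in an H3K4me1 peak for 1.87% and 5.68%. H3.3 was more frequent away from the centre of wide domains. At 300 bp to one side and the other, inside the domains, it covered 6.87% and 5.58% of points. At 600 bp it covered 9.23% and 8.43%. There 34.9% and 50.5% of the points lay in a mock H2AZ peak, so many were outside the domain. Within gene ends the share of H2AZ bases covered was near equal in both groups: Pol II covered 65.5% of the bases of wide domains and 65.8% of those of narrower peaks, H3K18ac 42.9% and 43.1%, and MED26 38.9% and 38.6%. Of all wide domains at gene ends, 92.4% overlapped Pol II, 78.0% H3K18ac and 26.7% EP400.

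**Figure D2:**
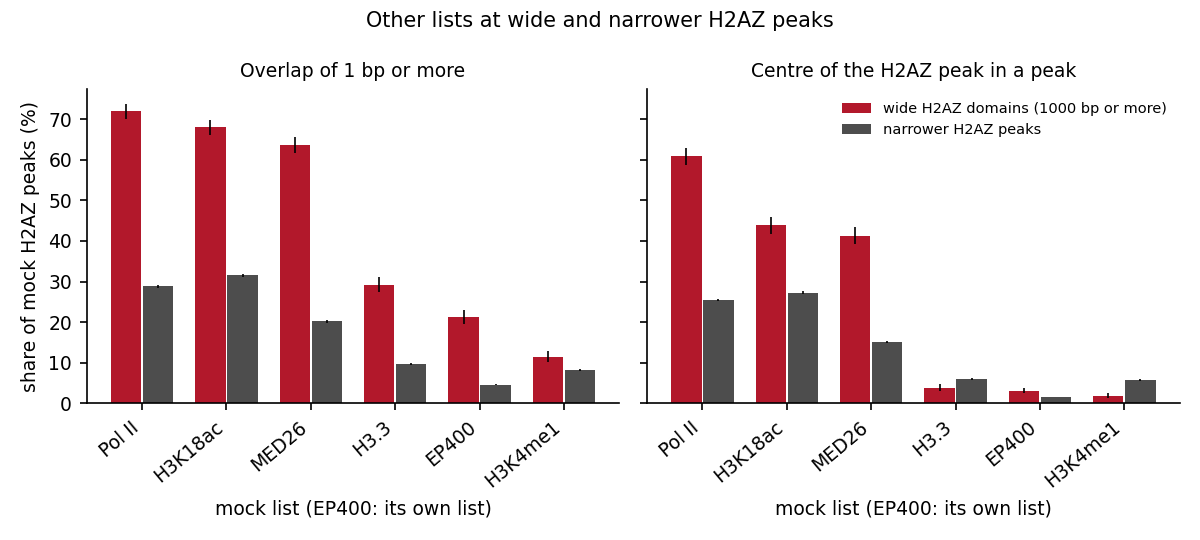
Bars give the share of wide H2AZ domains (red) and narrower H2AZ peaks (grey) in mock cells that overlap each list by 1 bp or more (left) or whose centre lies in a peak of it (right), with Wilson 95% intervals as lines. Pol II, H3K18ac and MED26 are more frequent at wide domains by both measures, and H3.3 and H3K4me1 are less frequent at their centres.

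Pol II and H3K18ac usually came together at these domains. Pol II with H3K18ac and no EP400 marked 922 domains (41.1%), and all 3 marked 383 (17.1%). Pol II alone of the 3 marked 268 domains, H3K18ac alone 200 and EP400 alone 34. EP400 peaks were narrow, at a median of 50 bp over the whole list. The widest EP400 peak at a domain with EP400 had a median of 100 bp, so such a domain usually held a short stretch of it. None of the 3 was found at 376 domains (16.8%).

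A separate set of 323 domains (14.4%) overlapped no other list of mock cells and no EP400 peak, against 53.9% of narrower peaks and 52.4% of all H2AZ peaks. These bare domains lay in gene-poor regions, with a median of 3 loci within 500 kb against 7 for all wide domains, and 277 of them lay at no gene end. H2AZ was still present at 302 of them (93.5%) after EP400 siRNA. An example of 2600 bp at chr5:121029501-121032100 (hg19) overlapped none of the other lists in either condition and held an 1800-bp H2AZ peak after EP400 siRNA. Another at chr5:23012201-23014400, with no locus within 500 kb, measured 2400 bp after EP400 siRNA and 2200 bp after mock siRNA. By chromosome, the share of H2AZ peaks that were wide was highest on chromosome 14, at 4.996%, and was 1.78% on chromosome 13 and 1.49% on chromosome X, with 0 of 44 peaks on chromosome Y.

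The 15 widest domains were led by a 3700-bp domain at chr12:34498801-34502500 (hg19), an enhancer by the definition used, which overlapped all of the other mock lists and EP400 and had 1 locus within 500 kb. The second, of 3400 bp, lay at the end of the locus of KLRK1, a receptor of natural killer cells, and KLRC4 (chr12:10515101-10518500). It overlapped H3K18ac, H3.3 and MED26 and no Pol II peak, and KLRK1 had 0.0563 FPKM after EP400 siRNA and 0.213 FPKM after mock siRNA. The antisense gene KLRK1-AS1 of the same locus had 0.739 FPKM after EP400 siRNA and 2.40 FPKM after mock siRNA. The third, of 3200 bp, spanned an end of the locus of EPC1, a scaffold subunit of the TIP60-EP400 complex (chr10:32665701-32668900). It overlapped EP400, Pol II and H3K18ac. After EP400 siRNA it was covered by 3 H2AZ peaks with 1800 bp in all, the widest of 900 bp, and no Pol II peak overlapped it.

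Genes of transcriptional regulators followed in the order of width. TRPS1, a GATA-type repressor, had 2900 bp and ARID5B, an AT-rich interaction domain protein, had 2800 bp. Both domains overlapped EP400, Pol II, H3K18ac and MED26. Their RNA levels were low: TRPS1 had 0.543 FPKM after EP400 siRNA and 0.676 FPKM after mock siRNA, and ARID5B had 1.39 FPKM after EP400 siRNA and 1.87 FPKM after mock siRNA. ITGB8, an integrin subunit, had a 2500-bp domain at a gene end and 0.828 FPKM after EP400 siRNA against 0.394 FPKM after mock siRNA. FBXL17 had 1.12 FPKM after EP400 siRNA and 0.658 FPKM after mock siRNA. Of the genes named here from the 15 widest domains, EPC1 had the highest level.

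Some loci held several wide domains, although wide domains were spread over 1404 loci with one at an end. A cluster of overlapping genes on chromosome 1 that includes the NBPF family held 9700 bp in 8 domains. The NBPF genes are near-identical copies, so reads and peaks there are uncertain. ESRRG, an orphan nuclear receptor, held 6100 bp in 5 domains, although its RNA was at 0.0387 FPKM after EP400 siRNA and 0.00435 FPKM after mock siRNA. PCDH7, a protocadherin of cell adhesion, held 4200 bp in 3 domains. SVIL, an actin-binding protein, SLC8A1, a sodium-calcium exchanger, and SYNE1, a protein of the nuclear envelope, held 4100 bp in 3 domains each.

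After EP400 siRNA nearly all wide domains still held H2AZ, in narrower and often split peaks. An H2AZ peak overlapped 2063 domains, or 92.0% (90.8 to 93.1), against 25.6% of narrower peaks and 28.1% of all H2AZ peaks. Since such overlap grows with width by construction, the centre was read too, and it lay in an H2AZ peak after EP400 siRNA for 48.3% of wide domains and 16.5% of narrower peaks. The widest overlapping peak had a median of 500 bp after EP400 siRNA, with quartiles of 300 and 800 bp, against 1200 bp for the same domains after mock siRNA, a median ratio of 0.385. After EP400 siRNA, 43.8% of the bases of wide domains and 21.5% of those of narrower peaks were covered. In 728 of the 2063 domains (35.3%) there were 2 or more peaks after EP400 siRNA. A peak of at least 1000 bp was found at 293 domains (13.1%), and one as wide as in mock cells or wider at 96.

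Members chosen for width in 1 library are expected to be narrower in another, so the comparison was also read from the other side. All 420 peaks of 1000 bp or more after EP400 siRNA overlapped a mock H2AZ peak, and 293 of them (69.8%) overlapped a wide domain. They had a median width of 1100 bp after EP400 siRNA and 1200 bp for the mock peaks they overlapped, and 57.4% of the mock peaks were as wide or wider. Chosen from the list after EP400 siRNA, the wide peaks thus had mock partners of about the same width, with a median ratio of 1 (mock over EP400 siRNA), whereas domains chosen from the mock list had the ratio of 0.385 (EP400 siRNA over mock). The size of the difference depends on which list chose the members.

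The overlap after EP400 siRNA varied with place. H2AZ remained at 94.0% of wide domains at gene ends (92.6 to 95.2), 91.8% of those elsewhere and 69.8% of the 106 at enhancers (60.5 to 77.7). Among narrower peaks the shares were 43.6% at gene ends, 18.6% elsewhere and 16.7% at enhancers, the same order of places. By class of width, the median ratio of the widest peak after EP400 siRNA over the mock width was 0.385 for 1000 to 1400 bp, 0.40 for 1500 to 1900 bp, 0.43 for 2000 to 2900 bp and 0.28 for the 3 widest. Domains with an EP400 peak kept H2AZ at 93.3% and those without at 91.7%, and the median width after EP400 siRNA was 500 bp in both. Domains with Pol II kept it at 93.9% and those without at 87.1%.

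The single domains given here ranged from full width to a peak of 100 bp after EP400 siRNA. A further 179 of the 2242 wide domains had no overlapping H2AZ peak. CLEC2B, a C-type lectin, had 2300 bp after EP400 siRNA and 2300 bp after mock siRNA. THSD7A had 2000 bp after EP400 siRNA and 1900 bp after mock siRNA. ITGB8 had 4 peaks after EP400 siRNA, the widest of 200 bp, in place of a 2500-bp domain after mock siRNA. A 2400-bp domain inside the locus of COL8A1, CMSS1 and FILIP1L at chr3:99355501-99357900 (hg19) had 2 peaks after EP400 siRNA, the widest of 100 bp. SMAD9, a transducer of BMP signals, had 100 bp after EP400 siRNA in place of 1600 bp after mock siRNA.

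**Figure D3:**
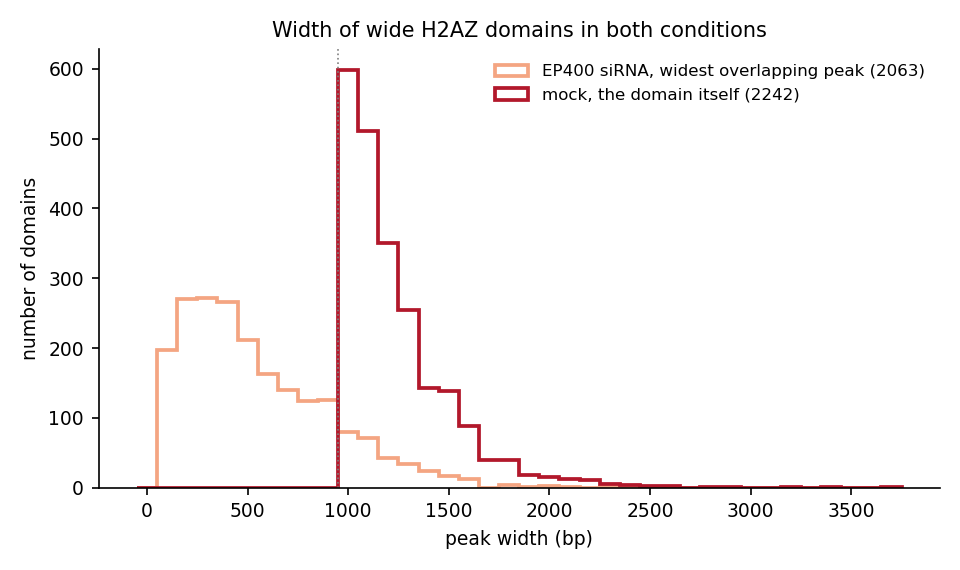
The number of wide domains (y axis) is plotted by peak width (x axis, bp), for the widest overlapping H2AZ peak after EP400 siRNA (2063 domains with one, orange) and for the domain itself after mock siRNA (2242, red). The dotted line stands at the threshold of 1000 bp that chose the members, and most overlapping peaks after EP400 siRNA lie below it, with a median of 500 bp.

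Pol II and MED26 stayed at most wide domains after EP400 siRNA, and H3.3 did not. Pol II overlapped 1369 domains after EP400 siRNA and 1613 after mock siRNA, and 84.4% of those with Pol II after mock siRNA had it in both conditions. At narrower peaks the counts were 11296 after EP400 siRNA and 16068 after mock siRNA, with 68.3% kept. Among all H2AZ peaks 21.8% had Pol II after EP400 siRNA. MED26 overlapped 1233 domains after EP400 siRNA and 1428 after mock siRNA, with 82.5% kept, against 66.1% kept at narrower peaks (all H2AZ peaks after EP400 siRNA, 16.7%). H3.3 overlapped 130 domains after EP400 siRNA and 654 after mock siRNA, and 60 had it in both (all H2AZ peaks after EP400 siRNA, 1.81%). At narrower peaks H3.3 overlapped 921 after EP400 siRNA and 5403 after mock siRNA. The H3.3 list held 41439 peaks after EP400 siRNA and 79838 after mock siRNA, the Pol II lists 20987 and 30760, and the MED26 lists 24366 and 27006. All 3 lists were thus shorter after EP400 siRNA, but the counts at wide domains did not simply follow them. Relative to mock, H3.3 was lower at wide domains (ratio of counts 0.20) than in its whole list. Pol II (0.85) was lower in its whole list than at wide domains, and MED26 (0.86) was close to its list. The part of depth was not tested.

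At the 106 enhancer domains Pol II overlapped 15 after EP400 siRNA and 38 after mock siRNA. Of the 2732 narrower peaks at enhancers it overlapped 72 and 494 in the same order. At wide domains of gene ends it overlapped 1051 after EP400 siRNA and 1171 after mock siRNA, and at narrower peaks there 8706 and 11416. H3.3 overlapped 17 enhancer domains after EP400 siRNA and 40 after mock siRNA, and 63 gene-end domains against 454 in the same order. At narrower peaks H3.3 overlapped 105 against 865 at enhancers and 204 against 2564 at gene ends. Relative to mock, each count was lower at narrower peaks than at wide domains, so fewer overlaps were not particular to wide domains.

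Wide domains marked genes of low to middle expression. A wide domain lay at an end of 1732 genes (1404 of 20146 loci). Of these genes 7 had a failed RNA estimate and 698 had a mean FPKM under 1, which left 1027 of the 11666 measured genes (8.8%). The filter uses the RNA level, so the 1027 are not all members. Their median mock level was 3.804 FPKM (95% interval 3.44 to 4.19), against 8.69 FPKM for genes with only narrower H2AZ peaks and 7.39 FPKM for genes with none. Genes with a domain of 1500 bp or more had a median of 2.51 FPKM (183 genes). Pol II lay at an end of 97.8% of genes with a wide domain, of 97.7% of genes with narrower peaks and of 55.4% of genes with no H2AZ.

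The share of genes with a wide domain was highest in the middle of the range of RNA levels. Among all genes with an estimate it was 2.58% of 4569 genes listed at 0 FPKM in mock cells and 8.14% of those up to 1 FPKM. It reached 11.5% of the 4466 genes over 1 and up to 5 FPKM. It was 7.65% of genes up to 20 FPKM, 5.71% of those up to 100 FPKM and 3.66% of the 1120 genes over 100 FPKM. Any H2AZ peak at an end followed another course, at 26.4% of genes listed at 0, 75.8% of those over 1 to 5 FPKM and 72.9% of those over 100 FPKM. Pol II at an end was found for 17.9% of genes listed at 0, 84.0% of those over 1 to 5 FPKM and 94.6% of those over 100 FPKM. Over the classes above 5 FPKM, wide domains thus became fewer while the share of genes with Pol II was higher in each next class.

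**Figure D4:**
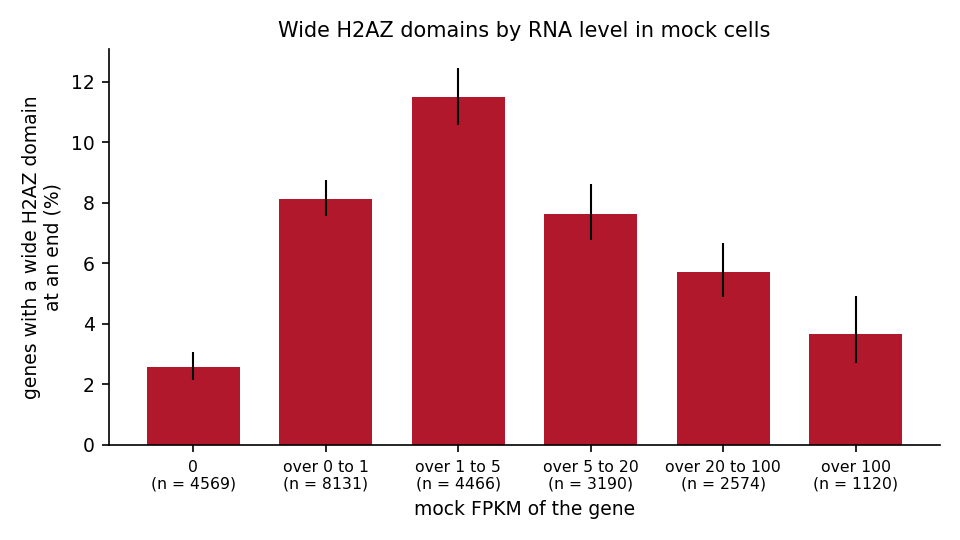
Bars give the share of genes with a wide H2AZ domain at an end (y axis, %) by class of mock FPKM (x axis, number of genes below each class), with Wilson 95% intervals as lines. The share is highest, at 11.5%, over 1 to 5 FPKM and is 3.66% over 100 FPKM.

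RNA of genes with a wide domain was on balance slightly higher after EP400 siRNA, while the median of all genes was lower. The RNA ratio was taken on a log2 scale after a pseudocount of 1 FPKM was added to both conditions, EP400 siRNA over mock, and it understates differences of low genes. Its median was 0.19 for the 1027 genes (95% interval 0.13 to 0.25), -0.19 for genes with narrower peaks, -0.43 for genes with no H2AZ and -0.20 for all genes. At least 2-fold higher after EP400 siRNA were 88 genes or 8.57%, against 6.11% of all measured genes. At least 2-fold lower were 119 genes or 11.6%, against 22.9% of all. The FPKM kept here summed to 360144 after EP400 siRNA and 616166 after mock siRNA. Scaling both libraries to the same sum moved the median of all genes to 0.49, with 39.6% of genes with a wide domain higher and 2.83% lower, against 28.4% and 4.99% of all genes. The gap between the median of genes with a wide domain and that of all genes was 0.39 as deposited and 0.33 after that scaling.

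The ratio depended on the level of the gene, and wide domains are frequent at low genes. When measured genes were split by mean FPKM into 5 classes of equal size, the median ratio of genes with a wide domain was 0.32, 0.37, 0.26, -0.41 and -0.75, lowest to highest class. Over all genes of the same classes it was 0.20, 0.18, -0.07, -0.56 and -0.93. The median was higher for genes with a wide domain in each of the 5 classes, by less than the gap over all levels. The 95% interval of the median overlapped that of genes with narrower peaks in the lowest class and in both of the highest classes. Genes whose domain was still at least 1000 bp wide after EP400 siRNA (94) had a median ratio of 0.41, those whose domain was narrower (866) 0.17 and those without overlapping H2AZ (67) 0.07. Their median mock levels were 1.84, 4.004 and 4.06 FPKM in that order, so level moved with this split and its part was not tested. Split by EP400 in the domain, the median ratio was 0.18 for 323 genes with EP400 and 0.19 for 704 without. The median mock levels of these groups were 4.79 and 3.44 FPKM in that order. Of the 704, 22.6% still carried EP400 near one of the locus ends. What part level or EP400 had in this split was not tested.

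**Figure D5:**
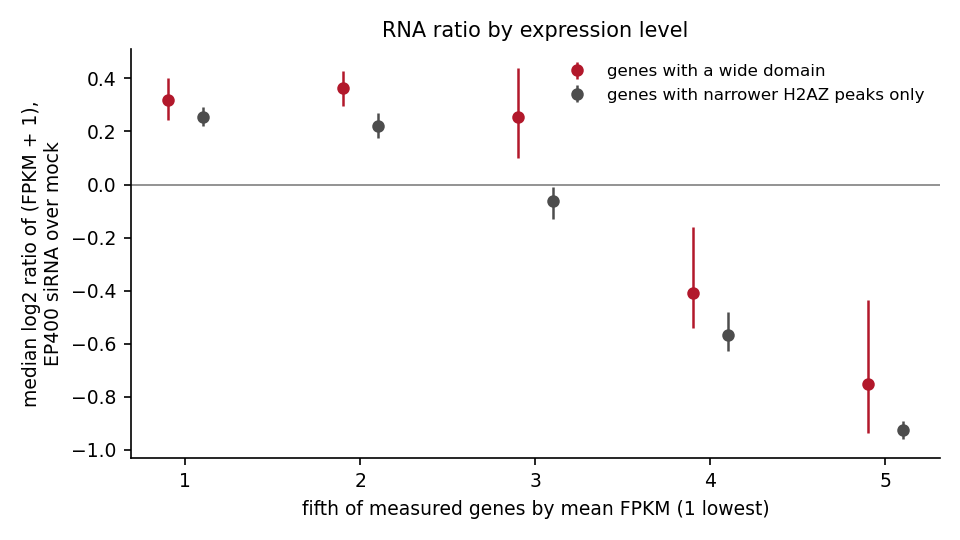
The median log2 ratio of RNA, EP400 siRNA over mock (y axis), is plotted by class of mean FPKM (x axis, 5 classes of equal size, 1 lowest), for genes with a wide domain (red) and genes with narrower H2AZ peaks only (grey), with 95% order-statistic intervals as lines. The red points lie above the grey ones in each class, at -0.75 and -0.92 in the highest, and the intervals overlap in classes 1, 4 and 5.

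Among genes with a wide domain and a mean of at least 5 FPKM, the highest ratio was that of ITGA2. The ratio chose the genes of this ranking. ITGA2, GPAT3 and PCDH7 were under 5 FPKM after mock siRNA and passed the filter through their EP400 siRNA level. ITGA2 had 10.1 FPKM after EP400 siRNA and 0.597 FPKM after mock siRNA, a log2 ratio of 2.80, at a 1700-bp domain with Pol II, H3K18ac and H3.3 and without EP400. After EP400 siRNA the domain of ITGA2 held a peak of 500 bp. GPAT3, an acyltransferase of triglyceride synthesis, had 13.5 FPKM after EP400 siRNA and 1.64 FPKM after mock siRNA. GNG11, a G protein gamma subunit, had 77.2 FPKM after EP400 siRNA and 16.5 FPKM after mock siRNA. PCDH7 had 14.5 FPKM after EP400 siRNA and 3.05 FPKM after mock siRNA. These genes were higher after EP400 siRNA while the widest H2AZ peak in their domain was narrower, at 100 to 800 bp.

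Enzymes of amino acid and purine metabolism were also among the highest. ASNS, the asparagine synthetase, had 41.7 FPKM after EP400 siRNA and 10.6 FPKM after mock siRNA at a 1200-bp domain. PNP, a purine nucleoside phosphorylase, had 68.8 FPKM after EP400 siRNA and 18.3 FPKM after mock siRNA at a 1400-bp domain with EP400. CEBPZ, a CCAAT-binding protein, had 10.1 FPKM after EP400 siRNA and 2.005 FPKM after mock siRNA at a 1000-bp domain. The antisense gene DLGAP1-AS2 had 13.0 FPKM after EP400 siRNA and 2.23 FPKM after mock siRNA. It cannot be told apart from overlapping DLGAP1 without strand, and DLGAP1 had 0.368 FPKM after EP400 siRNA and 0.370 FPKM after mock siRNA. Both lie in a merged locus at chr18:3496030-4455266 (hg19). Its 1400-bp domain lay at chr18:4454501-4455900, at an end of that locus, and was not placed at DLGAP1-AS2 itself. All 8 domains overlapped Pol II in both conditions.

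The lowest ratios were of genes at higher mock levels. The ratio and the filter on the mean both hold the mock level, so this follows in part from the choice of genes. NHSL3 had 13.6 FPKM after EP400 siRNA and 118 FPKM after mock siRNA, a log2 ratio of -3.04, at a 1000-bp domain. COL9A2, a collagen chain, had 3.26 FPKM after EP400 siRNA and 19.95 FPKM after mock siRNA. TEAD2, a DNA-binding partner of YAP, had 8.34 FPKM after EP400 siRNA and 43.5 FPKM after mock siRNA. SDC1, a heparan sulfate proteoglycan, had 36.96 FPKM after EP400 siRNA and 177 FPKM after mock siRNA.

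Other genes among the 8 with the lowest ratios had domains of similar width. THRA, a thyroid hormone receptor, had 8.06 FPKM after EP400 siRNA and 40.6 FPKM after mock siRNA. SEPTIN5, a septin GTPase, had 10.1 FPKM after EP400 siRNA and 58.0 FPKM after mock siRNA, and shares its locus with the read-through gene SEPT5-GP1BB at 9.27 and 54.2 FPKM. The domains of the 8 genes measured 1000 to 1300 bp after mock siRNA, and their widest peaks after EP400 siRNA measured 200 to 600 bp. The direction of all 16 genes held after scaling to the same sum. The deposited confidence limits are per transcript; added up per gene, which makes them wide where there are several transcripts, they overlapped between the conditions for all 16.

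Among the 1027 measured genes those limits overlapped for 1024. The 3 exceptions, named here after their values were seen, were all higher after EP400 siRNA. Each had under 1 FPKM after mock siRNA and passed the filter through its EP400 siRNA level, so this direction was fixed by the filter. IFIT2, an interferon-induced inhibitor of translation, had 5.23 FPKM after EP400 siRNA (0.662 to 9.81) and 0.331 FPKM after mock siRNA (0.0243 to 0.638). MPP4, a membrane scaffold protein, had 3.57 FPKM after EP400 siRNA (0.371 to 6.78) and 0.123 FPKM after mock siRNA (0.00234 to 0.244). ADGRL4, an adhesion G protein-coupled receptor, had 2.42 FPKM after EP400 siRNA (0.254 to 4.59) and 0.122 FPKM after mock siRNA (0.00668 to 0.237).

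Gene lists differed in how many members carried a wide domain, and all members with one are named. In the interferon response list 4 of 20 measured genes (20%) had one, against 8.8% of all measured genes. Of its 24 members in the RNA table, measured or not, 4 had one, against 1732 of 24198 genes. RIGI, IFIH1 and IFIT2 had under 1 FPKM after mock siRNA and passed the filter through their EP400 siRNA level. Their direction was thus fixed by the filter. RIGI had 5.003 FPKM after EP400 siRNA and 0.357 FPKM after mock siRNA at a 1300-bp domain, and IFIH1 had 2.10 FPKM after EP400 siRNA and 0.292 FPKM after mock siRNA at an 1800-bp domain. OAS3, a sensor enzyme of double-stranded RNA, had 14.2 FPKM after EP400 siRNA and 7.61 FPKM after mock siRNA. IFIT2, IFIH1 and RIGI passed 2-fold, as did 15 of the 20 measured members, with 0 at least 2-fold lower, against 6.11% of all measured genes higher and 22.9% lower. The list median was 1.403, against -0.20 for all genes. The other members past 2-fold had no wide domain. The H2AZ peaks at these 3 genes measured 400 bp at IFIH1, 200 bp at RIGI and 200 bp at IFIT2 after EP400 siRNA.

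HOX genes, the regulators of body position, had a wide domain at 3 of 25 measured members (12%) and at HOXA13 and HOXD13 under the filter. HOXD9 had 2.59 FPKM after EP400 siRNA and 6.93 FPKM after mock siRNA, HOXB13 had 5.38 and 11.1 FPKM, and HOXD8 had 1.59 and 1.57 FPKM in the same order. HOXD9 alone of the 3 passed 2-fold, and it did not after scaling to the same sum (log2 ratio -0.54). In the list of 25, 5 members were at least 2-fold lower and 0 higher, against 22.9% and 6.11% of all measured genes, with a median of -0.17. After the scaling 2 were lower and 6 higher, against 4.99% and 28.4% of all, with a median of 0.53. The 5 lower members and, after the scaling, the 6 higher ones were thus near the share of all genes.

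In the H2A.Z machinery list 2 of 23 measured genes (8.70%, near the share of all genes) had a wide domain, EPC1 and its paralogue EPC2. EPC1 had 12.4 FPKM after EP400 siRNA and 16.8 FPKM after mock siRNA. EPC2 had 3.41 FPKM after EP400 siRNA and 1.67 FPKM after mock siRNA at a 1000-bp domain that held an 800-bp peak after EP400 siRNA. Neither passed 2-fold as deposited, and the scaling to the same sum put EPC2 past it, at a log2 ratio of 1.36. The list of 23 had a median of -0.22 with 0 members higher and 5 lower, against 6.11% and 22.9% of all measured genes. After the scaling it had a median of 0.53 with 6 higher and 1 lower, against 28.4% and 4.99% of all. Apart from the 0 higher as deposited, these counts were near those shares.

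Other lists held few wide domains or none. Cytosolic ribosomal proteins, at a median mock level of 800 FPKM, had one at 2 of 73 measured genes, RPS29 and RPL9. RPS29 had 1398 FPKM after EP400 siRNA and 4413 FPKM after mock siRNA. RPL9, which lies in a long cluster of merged loci, had 110 FPKM after EP400 siRNA and 93.4 FPKM after mock siRNA. No wide domain was found at 17 measured glycolysis genes, 25 genes of the actin cytoskeleton, 24 AP-1 and immediate-early genes or 14 mesenchymal regulators. Of the last list, PRRX1, a homeobox gene of mesenchyme under the filter, had an 1100-bp domain. TGF-beta and BMP signalling had 1 of 18, LTBP1, which binds latent TGF-beta and had 2.40 FPKM after EP400 siRNA and 5.81 FPKM after mock siRNA. The p53 targets had 1 of 17, ZMAT3, an RNA-binding protein with 1.34 FPKM after EP400 siRNA and 0.925 FPKM after mock siRNA at a 1500-bp domain.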

How the data were processed

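Peak lists of 11 ChIP groups and 1 RNA table from 19 samples were used, and the 4 inputs were not analysed here. The lists deposited by the authors give 3 columns of position and no other value such as a score; positions move in 50-bp steps in the EP400 list and 100-bp steps elsewhere. Coordinates are hg19, counted from 1. The tools named in the submitters' processing notes are Cuffdiff 2.0.2, TopHat2 2.0.8 and Bowtie 0.12.9. For the peak caller, threshold and control the sources used here give nothing. The RNA table holds FPKM deposited by the authors, and their lower and upper confidence limits as a signal in the same unit, per the file headers. Depth is unknown.

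The members and the 10 gene lists were chosen with earlier results of these data known. Gene symbols came from RefSeq by transcript (97.7% of 48669 rows matched). FPKM of rows of at least 200 nt were summed per gene, 122 genes whose estimate had failed were dropped, and genes with a mean of 1 or more FPKM were measured. Loci with more than 1 gene (14.6%) share their ends, and overlapping genes cannot be told apart. Overlap means 1 bp or more. Shares carry Wilson 95% intervals and medians order-statistic intervals. Interval counting and ratios were tested on simulated data. Named were EP400, H2AZ1 and H2AZ2, the loci at the 15 widest domains and the 8 widest away from gene ends, the 8 loci with most bases in wide domains, the 8 highest and 8 lowest RNA ratios at a mean of 5 FPKM or more, for each list at most 3 members with the widest domains, and the 6 widest domains after EP400 siRNA. Further list members with a wide domain were named after their values were seen. Some items that the rule names are not reported here. Alternatives covered width, gene ends, overlap, joining of peaks, filters, pseudocounts and scaling. Python 3.11.15, pandas 2.3.3 and numpy 2.4.6 were used.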

Additional observations from a re-analysis of the deposited data

How the results depend on the processing

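Of 107 alternative values, 47 moved by less than their interval, 59 moved and 1 reversed. A mean of 5 FPKM or more turned the median RNA log2 ratio to -0.15 (all genes -0.57), with a median mock level of 15.4 FPKM and 19.9% lower (all genes 32.0%). Without the filter the median ratio was 0.082, mock level 1.45 FPKM, 5.65% higher and 7.16% lower (all genes 3.56% and 12.9%). Median centring gave 0.39, 14.9% higher and 7.89% lower (all genes 10.8% and 15.7%). Equal sums (TPM) gave 0.82, 3.23 FPKM, 39.6% higher and 2.83% lower (all genes 28.4% and 4.99%). A pseudocount of 0.1 gave 16.7% higher and 15.2% lower (all genes 11.3% and 27.5%), and 0.5 gave 12.4% higher (all genes 8.37%). Domains of 1500 bp or more lay at gene ends for 60.7% and at enhancers for 3.39%, with Pol II at 74.7%, H3K18ac at 72.1%, H3.3 at 33.6%, MED26 at 69.0%, EP400 at 24.7% and H2AZ after EP400 siRNA at 97.4%, and their genes had 2.51 FPKM, a ratio of 0.36, 11.5% higher and 2.73% lower. At 2000 bp or more these were 54.4% at gene ends, 7.02% at enhancers, Pol II 68.4%, H3K18ac 75.4%, H3K4me1 17.5%, H3.3 38.6%, EP400 26.3% and H2AZ 98.2%, with 2.27 FPKM, 13.6% higher and 0% lower. The centre measure gave Pol II 60.8%, H3K18ac 43.8%, H3K4me1 1.87%, H3.3 3.84%, MED26 41.3%, EP400 3.03% and H2AZ 48.3%. A peak over at least 0.5 of the domain gave Pol II 56.5%, H3K18ac 38.0%, H3K4me1 1.65%, H3.3 2.14%, MED26 28.7%, EP400 0.223% and H2AZ 42.6%. Joining peaks across gaps of up to 500 bp gave gene ends 59.4%, Pol II 74.5%, MED26 66.8%, H2AZ 85.7% and a width ratio of 0.273. Gene ends of 5 kb took 60.6% of domains. The overlap measures differ by construction, since a narrow peak cannot fill a domain, and for the other changes the cause was not tested.

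No paired analysis was possible because each antibody and the RNA had 1 library per condition, and the 3 EP400 immunoprecipitations came as 1 list. With 1 library per condition, leaving out a replicate was not possible either. Limiting the RNA comparison to loci with 1 gene, an alternative chosen after seeing the data, left a gap of 0.39 between the median ratio of genes with a wide domain and that of all genes. Peak numbers and widths depend on a depth and enrichment that the lists do not carry, so a domain without a peak after EP400 siRNA is not shown to lack H2AZ.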

Other observations

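Wide domains had another H2AZ peak within 500 bp less often than narrower peaks, at 422 domains (18.8%) against 29.3% of narrower peaks. The smallest gap between any 2 peaks of the list was 300 bp. The median distance to the nearest other H2AZ peak was 9800 bp for wide domains and 3700 bp for narrower peaks.

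The other peaks that overlapped a wide domain were of similar width to those that overlapped a narrower H2AZ peak. The widest overlapping peak of each list was read for each H2AZ peak. By this measure Pol II peaks had a median of 1100 bp in both groups, MED26 peaks 600 bp in both and H3.3 peaks 300 bp in both. H3K18ac peaks had a median of 700 bp at wide domains and 600 bp at narrower ones, and H3K4me1 peaks 200 and 300 bp. Of the 1524 wide domains with H3K18ac, 13.3% held 2 or more separate H3K18ac peaks. Likewise, 15.9% of the 654 wide domains with H3.3 held 2 or more H3.3 peaks. For Pol II it was 2.85% of the 1613 wide domains with Pol II.

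Transcripts of genes with a wide domain were longer, with a median of 3293 nt for the longest transcript against 2846 nt for genes with narrower peaks and 2424 nt for genes with no H2AZ. Length also went with level, at a median of 3430 nt over all genes in the lowest of the 5 classes of mean FPKM and 1893.5 nt in the highest. Within the classes, lowest to highest, wide against narrower was 4123.5 against 3624 nt, 3732 against 3547.5, 3252.5 against 3195, 2745.5 against 2659 and 2128.5 against 1869.5. The part of level was not tested.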
